A study of Mus musculus with 24 samples.

Results

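The genes described here are 2 dopamine receptors and 4 genes that make or package monoamines, measured by RNA sequencing in mouse pituitary. They were picked by symbol: Drd2, Drd4, Slc18a2, Tph2, Th and Ddc, which are 6 of the 35191 genes in the deposited count table, and all 6 passed the filter on low counts that left 21927 genes to test. The 24 libraries fall into 8 groups of 3. In each sex they are Egr1cKO (floxed Egr1, FF in the labels, with Cre), Egr1cKO control (floxed Egr1 without Cre), Cre control (Cre with unfloxed Egr1) and wild type (neither). Not given in the sources used here were the Cre driver, the exon it removes and the age of the mice. A plus sign in the genotype label is read as Cre because the libraries titled Cre control carry it.

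Dopamine from hypothalamic neurons reaches the pituitary and acts on the D2 receptor, encoded by Drd2, on lactotropes and on the melanotropes of the intermediate lobe, where it holds back the release of prolactin and of melanocyte-stimulating hormone. Drd4 encodes another receptor of the D2-like family, known from the retina and the pineal gland of rodents. Tyrosine hydroxylase (Th) is the rate-limiting enzyme of dopamine synthesis and tryptophan hydroxylase 2 (Tph2) that of serotonin synthesis in neurons. Aromatic L-amino acid decarboxylase (Ddc) carries out the last step to both amines, and the vesicular monoamine transporter 2 (Slc18a2) loads them into vesicles.

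Libraries held between 15486069 and 26255343 counts. Levels are given in CPM, the counts of a gene in each 1e6 counts of a library's scaled total, and each comparison is a log2 fold change from edgeR's quasi-likelihood test with a Benjamini-Hochberg adjusted p over 21927 genes and a threshold of 0.05, which is what "called" means. Egr1 itself ranged from 7.55 to 486 CPM and was not lower in Egr1cKO than in the floxed control without Cre: it averaged 65.5 CPM in female Egr1cKO against 18.3 CPM in control, and 134 CPM in male Egr1cKO against 38.9 CPM in control, with neither difference called. Cre control averaged 214 CPM in females and 195 CPM in males, above Egr1cKO of the same sex, with overlapping libraries. Whole-gene counts are blind to a missing exon, and Egr1cKO is used here as the label. Female wild type replicate 1 stood apart, with a mean correlation of 0.917 with its own group against 0.951 to 0.984 in the other libraries, and 10.1% of its counts were mitochondrial. Leaving it out raised the number of genes called in female Cre control against female wild type to 3603 from 265, yet no call on any of the 6 genes changed in the 6 comparisons it enters. Mitochondrial transcripts made up 9.42 ± 0.872% of counts in female Egr1cKO against 4.90 ± 1.76% in female Egr1cKO control (SD, n = 3 each), and Pomc, the hormone precursor gene of corticotropes and melanotropes, made up 14.8 ± 5.34% against 2.45 ± 1.37%. In bulk tissue, fewer cells of a type and less RNA per cell cannot be told apart.

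The 6 genes lie on 5 chromosomes (GRCm38, GENCODE M21). Drd2 (ENSMUSG00000032259) is at chr9:49340627-49408177 on the plus strand and Drd4 (ENSMUSG00000025496) at chr7:141292006-141296464 on the plus strand. Slc18a2 (ENSMUSG00000025094) is at chr19:59260896-59296012 on the plus strand, and Tph2 (ENSMUSG00000006764) at chr10:115078641-115185022 on the minus strand. Th (ENSMUSG00000000214) is at chr7:142892752-142931128 and Ddc (ENSMUSG00000020182) at chr11:11814101-11898144, both on the minus strand. The libraries are unstranded, so reads of a gene and an antisense partner cannot be told apart. Slc18a2 shares 111 exon bases with the antisense gene Gm29261, which had 13 counts in all 24 libraries, and Ddc overlaps the antisense gene 1700042O10Rik without a shared exon base.

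Drd2, Slc18a2 and Th were each called higher with Cre when all 24 libraries were compared, and Drd4 differed between the sexes. In the single comparisons, Slc18a2 was not higher with Cre in males, Drd2 was not in female Cre control and Th was not in male Egr1cKO. Promoter windows of these 4 genes are shown. Each runs from 250 bases before to 50 after the RefSeq start site (GRCm38.p6), 5′ to 3′ on the gene's own strand. In Slc18a2 and Th the capitals mark the cAMP response element TGACGTCA, and in Drd2 and Drd4 they mark GC boxes, GGGCGG or its reverse complement CCGCCC. GC boxes also stood in the windows of Slc18a2 (2) and Th (1), where they are left in lower case.
Drd2: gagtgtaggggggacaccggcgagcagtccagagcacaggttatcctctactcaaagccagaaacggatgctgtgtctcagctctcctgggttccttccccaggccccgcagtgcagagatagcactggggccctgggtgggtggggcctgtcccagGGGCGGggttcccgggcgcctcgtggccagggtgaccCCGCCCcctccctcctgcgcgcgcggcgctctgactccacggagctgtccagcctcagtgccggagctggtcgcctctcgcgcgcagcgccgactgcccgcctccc
Slc18a2: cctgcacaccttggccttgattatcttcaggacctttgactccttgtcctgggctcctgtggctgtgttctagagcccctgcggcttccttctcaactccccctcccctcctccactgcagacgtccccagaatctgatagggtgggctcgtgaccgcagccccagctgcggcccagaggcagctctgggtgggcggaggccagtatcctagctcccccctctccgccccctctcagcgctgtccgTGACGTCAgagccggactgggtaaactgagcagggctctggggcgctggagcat
Th: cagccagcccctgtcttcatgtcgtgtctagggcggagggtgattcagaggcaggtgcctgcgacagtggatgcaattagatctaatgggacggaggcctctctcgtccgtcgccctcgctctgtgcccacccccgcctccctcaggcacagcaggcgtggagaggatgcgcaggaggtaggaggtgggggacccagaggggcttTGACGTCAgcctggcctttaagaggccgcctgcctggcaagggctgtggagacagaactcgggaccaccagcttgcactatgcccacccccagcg
Drd4: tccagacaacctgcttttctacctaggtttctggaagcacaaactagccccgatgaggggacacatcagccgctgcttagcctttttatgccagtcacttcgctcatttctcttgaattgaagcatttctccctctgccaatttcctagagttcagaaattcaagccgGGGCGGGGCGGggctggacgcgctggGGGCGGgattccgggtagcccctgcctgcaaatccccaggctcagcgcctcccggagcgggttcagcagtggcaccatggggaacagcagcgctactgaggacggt
The windows lie at chr9:49340153-49340452 (plus strand), chr19:59260628-59260927 (plus strand), chr7:142899946-142900245 (minus strand) and chr7:141291768-141292067 (plus strand). In Drd2 and Th the RefSeq start site is not the 5′ end of the GENCODE span given above. The Drd2 window ends before that span begins, at 49340627, and the Th window lies inside the span, whose 5′ end is at 142931128. Positions below are relative to the RefSeq start sites. Of the 32851 windows in the RefSeq table, 1.79% held TGACGTCA on either strand and 35.7% held a GC box. The element lay 45 bases before the start site in Th and 4 bases before it in Slc18a2, where it runs across the start. An EGR1 motif, GCGNGGGCG on either strand, stood in 5.55% of all windows and, among the 6 genes, only in that of Th, 139 bases before the start; it shared no base with a GC box there. Tph2 and both Ddc windows held none of these motifs. These matches describe the letters in the windows and were not tested for binding.

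Drd2 was by far the most abundant of the 6. Per kilobase of exon, the mean level over the 24 libraries was 58.1 CPM for Drd2, 1.97 CPM for Slc18a2, 0.803 CPM for Th, 0.749 CPM for Ddc, 0.513 CPM for Drd4 and 0.489 CPM for Tph2. Drd2 and Slc18a2 had counts in every library, with at least 1080 and 61 counts. The other genes were near the floor in some: Drd4 was at 0 counts in 11 libraries, Th in 4, and Tph2 and Ddc in 1 each. The values of Th, Tph2, Ddc and Drd4 therefore rest on 230 counts or fewer in a library. When the 8 groups were ordered by mean level, the libraries of neighbouring groups overlapped in all 7 neighbouring pairs for Drd2, Slc18a2, Tph2, Th and Ddc. For Drd4 the exception was the step between male wild type and female Egr1cKO.

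**Figure D1:**
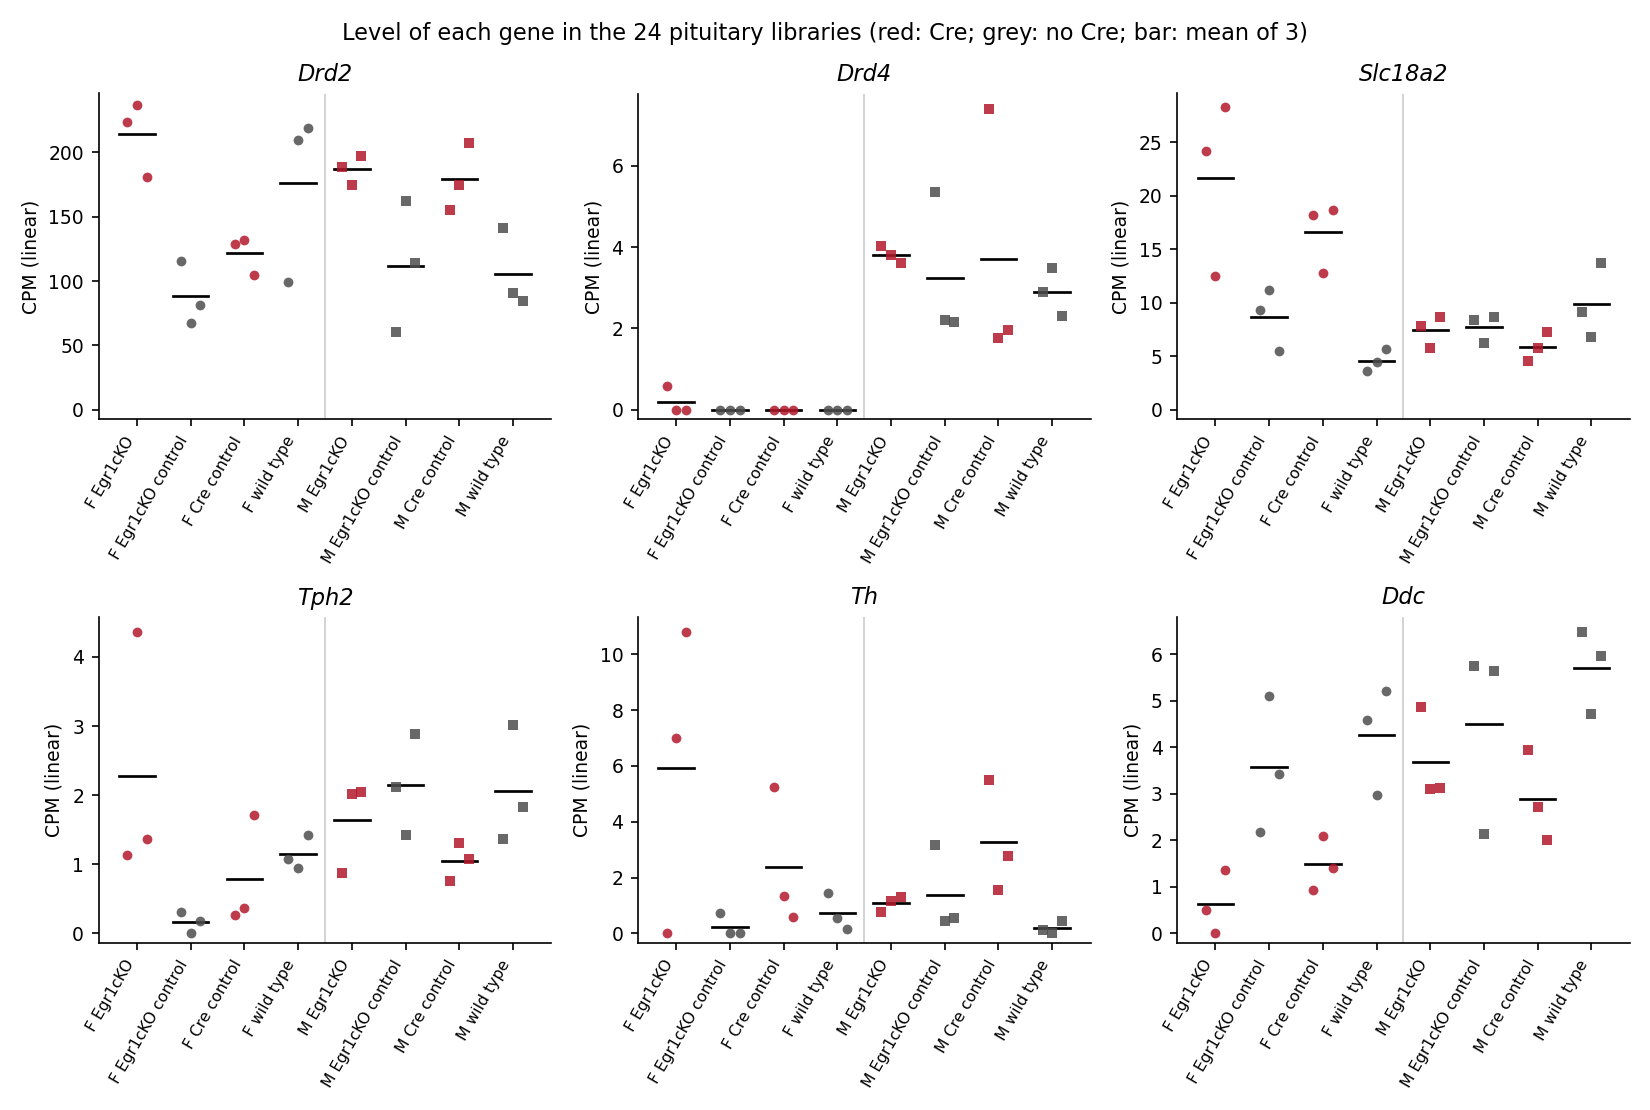
CPM of each gene on a linear axis in the 8 groups, female (F, circles) and male (M, squares), 3 libraries a group, with the group mean as a bar and libraries with Cre in red. Drd4 is at 0 in 11 of 12 female libraries, Slc18a2 reaches 28.3 CPM in female Egr1cKO against at most 13.7 CPM in any male library, and Ddc is lowest in female Egr1cKO.

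The D2 receptor gene was higher in female Egr1cKO pituitaries than in their controls. Drd2 measured 224, 237 and 181 CPM in female Egr1cKO and 116, 67.3 and 81.1 CPM in female Egr1cKO control. Every Egr1cKO library lay above every control library. edgeR gave a log2 fold change of 1.28 (SE 0.296, adjusted p = 0.0228). In males, Drd2 levels of 189, 175 and 197 CPM in Egr1cKO stood against 60.4, 162 and 114 CPM in Egr1cKO control, again without overlap. The male log2 fold change of 0.74 (95% interval 0.13 to 1.34) was not called (edgeR adjusted p = 0.644). Without female Egr1cKO replicate 2, or without female Egr1cKO control replicate 2 or 3, the female edgeR adjusted p was 0.0636, 0.126 and 0.0799.

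Among Cre controls the sexes gave values of opposite sign for Drd2, and neither was called. Female Cre control libraries had 129, 132 and 105 CPM and female wild type libraries 99, 210 and 219 CPM. The low wild type value came from the library that stood apart. The log2 fold change was -0.53 (edgeR adjusted p = 0.372), and -0.82 without that library (edgeR adjusted p = 0.0505). Male Cre control libraries had 155, 175 and 207 CPM and male wild type libraries 141, 90.4 and 84.9 CPM, with no overlap. The male log2 fold change was 0.76 (edgeR adjusted p = 0.355).

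Vesicular transporter mRNA was higher with Cre in females, whether Egr1 was floxed or not. Slc18a2 measured 24.2, 12.5 and 28.3 CPM in female Egr1cKO and 9.36, 11.2 and 5.51 CPM in female Egr1cKO control. It measured 18.2, 12.8 and 18.7 CPM in female Cre control and 3.63, 4.48 and 5.67 CPM in female wild type. In both pairs all libraries with Cre lay above all libraries without. The log2 fold change was 1.32 for female Egr1cKO against control (SE 0.334, edgeR adjusted p = 0.0351) and 1.84 for female Cre control against wild type (SE 0.343, edgeR adjusted p = 0.00785). The Cre control value was 1.70 without female wild type replicate 1 (edgeR adjusted p = 0.00235). Both calls were lost in models of only the groups compared, at edgeR adjusted p of 0.0573 and 0.203. The Egr1cKO call was kept in 1 of 6 fits that left out a library, the one without female Egr1cKO replicate 2, and the Cre control call was lost without female Cre control replicate 3 (edgeR adjusted p = 0.0553).

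In males the transporter gene did not follow that pattern. Slc18a2 measured 7.80, 5.75 and 8.67 CPM in male Egr1cKO and 8.37, 6.27 and 8.66 CPM in male Egr1cKO control, which overlapped. Male Cre control libraries had 4.60, 5.75 and 7.28 CPM and male wild type libraries 9.14, 6.78 and 13.7 CPM. The log2 fold changes were -0.07 (95% interval -0.75 to 0.62) and -0.75 (95% interval -1.44 to -0.06), and neither was called. The difference between the sexes was itself tested: the change with Cre in females minus that in males, averaged over floxed and unfloxed Egr1, was 1.99 on the log2 scale (SE 0.335, edgeR adjusted p = 0.00701). It stayed called in 24 of 24 fits that left out a library, and was 1.92 without female wild type replicate 1. Of the 5 genes compared here, Slc18a2 was the only one called in this test, which called 2.06% of all genes. The corresponding values were -0.37 for Drd2, 2.27 for Tph2, 1.25 for Th and -1.37 for Ddc, with edgeR adjusted p between 0.116 and 0.648.

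The serotonin-synthesis gene was higher in female Egr1cKO at low counts. Tph2 measured 1.13, 4.36 and 1.36 CPM in female Egr1cKO and 0.306, 0 and 0.171 CPM in female Egr1cKO control. The groups did not overlap, and edgeR gave a log2 fold change of 3.72 (SE 0.926, adjusted p = 0.0331). A model of only these groups gave an edgeR adjusted p of 0.17, and leaving out female Egr1cKO replicate 2 or female Egr1cKO control replicate 2 or 3 gave 0.121, 0.126 and 0.0959. Tph2 measured 0.266, 0.365 and 1.71 CPM in female Cre control and 1.07, 0.942 and 1.43 CPM in female wild type, which overlapped. In males it measured 0.871, 2.02 and 2.04 CPM in male Egr1cKO, against 2.12, 1.42 and 2.89 CPM in Egr1cKO control, and 0.751, 1.3 and 1.08 CPM in Cre control against 1.36, 3.01 and 1.83 CPM in wild type. None of these 3 comparisons was called.

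Th had its 2 highest values in female Egr1cKO, beside a library with none. It measured 0, 6.99 and 10.8 CPM in female Egr1cKO and 0.726, 0 and 0 CPM in female Egr1cKO control. The log2 fold change was 4.50 with a 95% interval of 1.29 to 7.71 and was not called (edgeR adjusted p = 0.119; DESeq2 adjusted p = 0.0488). Without female Egr1cKO replicate 1, the library at 0, it was 5.1 and called (edgeR adjusted p = 0.0406). Leaving out female Egr1cKO control replicate 1, the one control library with counts, gave 9.99, a value that depends on the prior count because both remaining controls were at 0 (edgeR adjusted p = 0.0617), and the other fits that left out a library gave 3.74 to 4.36 and no call. Female Cre control libraries had 5.26, 1.32 and 0.571 CPM and female wild type libraries 1.43, 0.565 and 0.163 CPM, which overlapped. In males, Th measured 0.780, 1.17 and 1.3 CPM in Egr1cKO against 3.18, 0.434 and 0.541 CPM in Egr1cKO control. Male Cre control libraries had 5.50, 1.57 and 2.77 CPM, against 0.123, 0 and 0.428 CPM in male wild type, where all Cre control libraries were higher without a call (log2 fold change 4.06, edgeR adjusted p = 0.356).

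The decarboxylase gene ran the other way. Ddc measured 0.502, 0 and 1.36 CPM in female Egr1cKO and 2.18, 5.11 and 3.42 CPM in female Egr1cKO control. All Egr1cKO libraries were below all controls, and the log2 fold change of -2.49 just missed the threshold (edgeR adjusted p = 0.0539; DESeq2 adjusted p = 0.00258). Female Cre control libraries had 0.931, 2.10 and 1.41 CPM and female wild type libraries 4.58, 2.97 and 5.22 CPM. Again no library overlapped, and the log2 fold change of -1.51 was not called (edgeR adjusted p = 0.238). Male levels were 4.86, 3.10 and 3.12 CPM in Egr1cKO against 5.75, 2.13 and 5.64 CPM in Egr1cKO control. They were 3.95, 2.72 and 2 CPM in male Cre control against 6.48, 4.71 and 5.96 CPM in male wild type, with log2 fold changes of -0.28 and -0.98 and no call.

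Across the 4 single comparisons, the called members were 3 of 5 in female Egr1cKO (2.21% of all genes were called there), 1 of 5 in female Cre control (1.21% of all genes), 0 of 6 in male Egr1cKO (0.041% of all genes) and 0 of 6 in male Cre control (0.233% of all genes). Taking the mean of these 4 differences, which sets the 12 libraries with Cre against the 12 without, 4 of 5 genes were called where 6.89% of all genes were. Drd4 was left out because 3 of its female groups had no count. Drd2 had a median of 178 CPM (105 to 237) with Cre and 106 CPM (60.4 to 219) without, a mean log2 difference of 0.56 (SE 0.146, edgeR adjusted p = 0.0181). Ddc had a median of 2.05 CPM (0 to 4.86) with Cre and 4.91 CPM (2.13 to 6.48) without, a mean log2 difference of -1.32 (SE 0.328, edgeR adjusted p = 0.0125). Both stayed called in 24 of 24 fits that left out a library. The Drd2 mean joined 1.28 in female Egr1cKO, 0.74 in male Egr1cKO and 0.76 in male Cre control with -0.53 in female Cre control. Ddc was below 0 in all 4 comparisons.

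The other calls in this comparison were less stable. Slc18a2 had a mean log2 difference of 0.59 (edgeR adjusted p = 0.0299), which stayed called in 14 of 24 fits and reached 0.0675 without female Egr1cKO replicate 3. Th had a median of 1.45 CPM (0 to 10.8) with Cre and 0.431 CPM (0 to 3.18) without, a mean log2 difference of 2.49 (SE 0.719, edgeR adjusted p = 0.0374). It stayed called in 8 of 24 fits and reached 0.0783 without female Cre control replicate 1. Without female Egr1cKO control replicate 1, the Th difference was 3.86, which likewise depends on the prior count. Tph2 had a mean log2 difference of 0.46 (95% interval -0.38 to 1.29) and was not called.

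**Figure D2:**
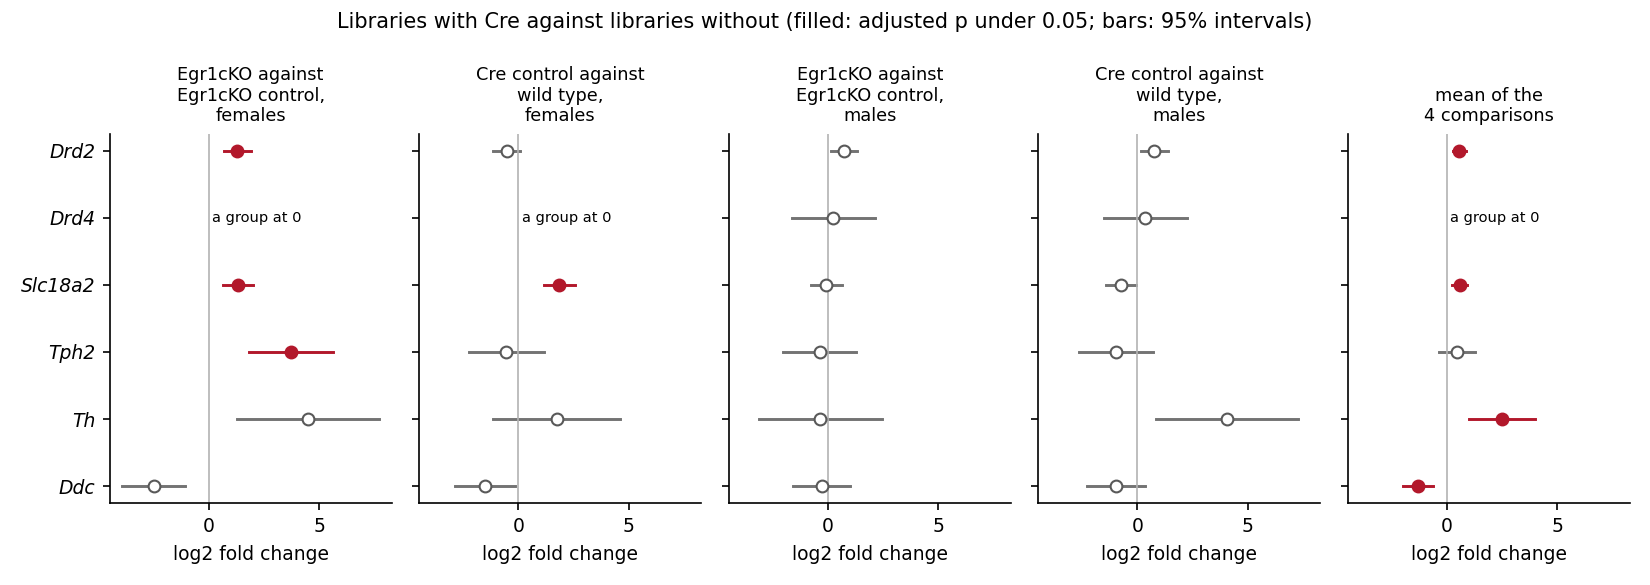
Log2 fold change of each gene, libraries with Cre against libraries without, in the 4 single comparisons and their mean, with 95% intervals as bars and called values filled in red. Drd2, Slc18a2 and Th lie above 0 and Ddc below 0 in the mean, Drd4 is not drawn where a group had no count, and the intervals of Th are the widest.

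Whether the change in Egr1cKO differed from the change in Cre control was not resolved for any of the 5 genes compared. The Egr1cKO change minus the Cre control change, averaged over the sexes, was 0.89 for Drd2 (95% interval 0.29 to 1.49), 2.43 for Tph2 (95% interval 0.72 to 4.13), 0.08 for Slc18a2 (95% interval -0.60 to 0.76), -0.14 for Ddc (95% interval -1.45 to 1.17) and -0.82 for Th (95% interval -3.69 to 2.05). The edgeR adjusted p lay between 0.925 and 1. By edgeR, 0 of 21927 genes were called (0% of all genes), with 1125 genes at an unadjusted p under 0.05, and DESeq2 called 3. Egr1cKO control against wild type also gave 0 calls in edgeR (0% of all genes) and 0 in DESeq2, with 1573 genes at an unadjusted p under 0.05. Without female wild type replicate 1, the library that stood apart, edgeR called 1665 genes in it, and without the filter on low counts 63. In the full fit this comparison gave -0.46 for Drd2 (95% interval -0.88 to -0.03) and -1.34 for Tph2 (95% interval -2.57 to -0.12). It gave 0.28 for Slc18a2, 0.69 for Th and -0.30 for Ddc, with intervals across 0. Female Egr1cKO control had the lowest mean of the 8 groups for Drd2 (88.1 CPM) and for Tph2 (0.159 CPM). Floxed and unfloxed libraries carry title numbers of 2 separate series, so the floxed allele and the series cannot be told apart.

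Drd4 mRNA was found in male pituitaries and barely in female ones. Male Egr1cKO libraries had 4.04, 3.82 and 3.6 CPM and male Egr1cKO control libraries 5.36, 2.21 and 2.16 CPM. Male Cre control libraries had 7.41, 1.76 and 1.96 CPM and male wild type libraries 2.90, 3.5 and 2.30 CPM. Every male library had counts. Male Egr1cKO overlapped its control and male Cre control overlapped male wild type. Of the female libraries, female Egr1cKO replicate 1 had 0.586 CPM from 14 counts and the other 11 had 0 counts. The sexes did not overlap, with or without Cre. With Cre, females had 14 counts in all and males 501, or 0.114 and 3.6 CPM over the summed libraries, which puts males 31.6-fold higher (edgeR adjusted p = 0.000103). Without Cre, females had 0 counts and males 384, so that the level was at least 127-fold higher in males in CPM when the females are set at 3 counts over their 6 libraries (edgeR adjusted p = 9.48e-05). Among males, the log2 fold change was 0.24 for Egr1cKO against control (95% interval -1.65 to 2.13) and 0.35 for Cre control against wild type (95% interval -1.54 to 2.25), neither called.

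Genes next to Drd4 were also measured. Deaf1, whose span ends 0.716 kb from Drd4, had a median of 50.6 CPM (41.9 to 62.2) in females and 44.6 CPM (35.2 to 57.7) in males. Irf7, 25.5 kb away, had a median of 15.3 CPM in females and 11.2 CPM in males. Phrf1, 29.3 kb away, had a median of 97.6 CPM in females and 71.5 CPM in males. The sexes overlapped in all 3 genes. Sct, the secretin gene at 12.9 kb, leaned the same way as Drd4 near the floor, with a median of 0 CPM (0 to 0.64) in females and 0.318 CPM (0 to 1.06) in males, and Cdhr5, at 15.2 kb, had a median of 0 CPM in both sexes. No test is given for these genes. Of the pineal markers, summed levels ran from 0 to 2.13 CPM in female and from 1.05 to 5.88 CPM in male libraries. Most of the male sum was Lhx4, a transcription factor gene of the developing pituitary as well, which averaged 0.291 CPM in females and 4.26 CPM in males with Cre and 0.553 CPM in females and 1.99 CPM in males without. The melatonin synthesis genes Asmt and Aanat averaged at most 0.397 and 0.939 CPM in any group, while Crx was at 0 counts in 6 of 8 groups and Gngt1 in 7 of 8. Their part in the result was not tested.

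Among the 6 genes Drd4 was the only one called between the sexes without Cre, a comparison that called 1.5% of all genes. With Cre, 3 of 6 were called, where 27.9% of all genes were: Drd4 and Ddc were lower and Slc18a2 higher in females. Slc18a2 had a median of 18.4 CPM (12.5 to 28.3) in females with Cre and 6.51 CPM (4.60 to 8.67) in males with Cre, without overlap (log2 fold change 1.52, SE 0.238, edgeR adjusted p = 9.64e-05). Ddc had a median of 1.14 CPM (0 to 2.10) in females with Cre and 3.11 CPM (2 to 4.86) in males with Cre (log2 fold change -1.75, SE 0.475, edgeR adjusted p = 0.00826). Both calls were kept in 12 of 12 fits that left out a library. Without Cre the female minus male value was -0.47 for Slc18a2 (95% interval -0.96 to 0.01) and -0.38 for Ddc (95% interval -1.31 to 0.54), and neither was called. Tph2 had a median of 0.624 CPM in females and 1.97 CPM in males without Cre. Its log2 fold change of -2.24 was not called by edgeR (adjusted p = 0.0629) and was by DESeq2 (adjusted p = 0.0037). With Cre the Tph2 value was 0.03 and not called. Drd2 (0.20 without Cre and -0.18 with Cre) and Th (-0.27 and 0.99) were not called in either comparison.

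**Figure D3:**
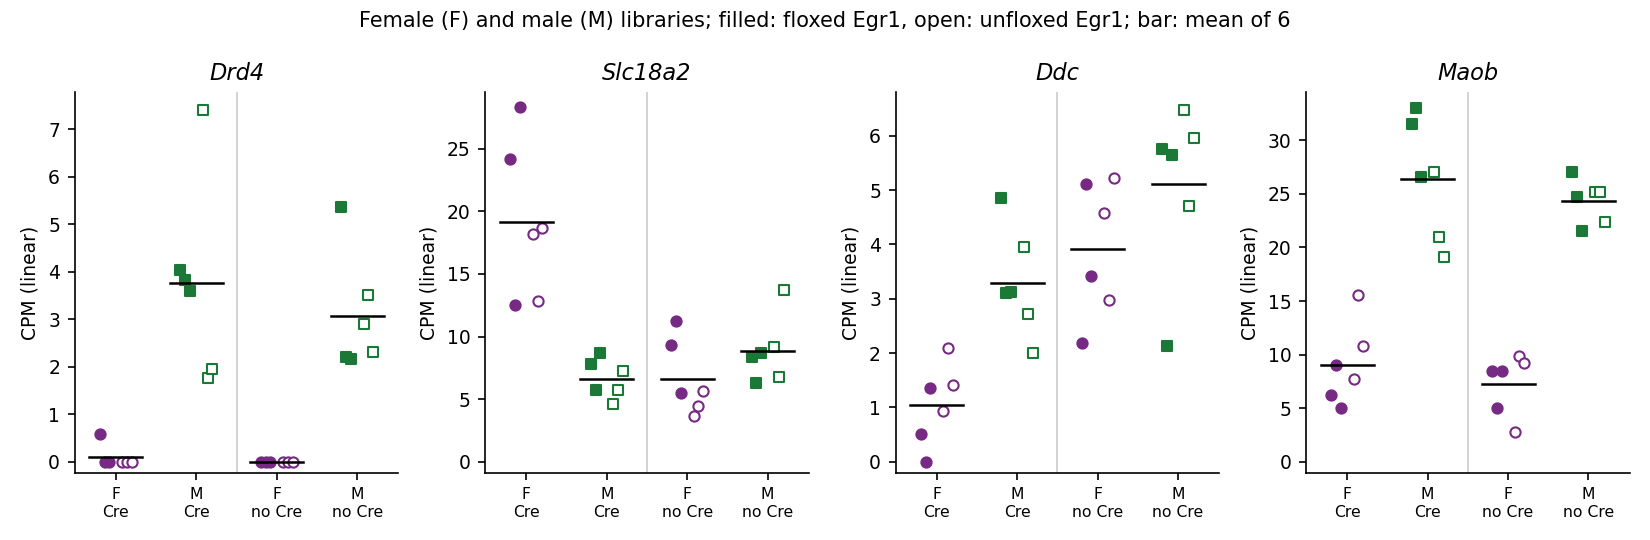
CPM on a linear axis of Drd4, Slc18a2, Ddc and Maob in females (F, purple) and males (M, green), with Cre on the left and without Cre on the right of each panel, 6 libraries each with the mean as a bar; filled points have floxed Egr1. Females and males are apart in Drd4 and Maob with or without Cre, and in Slc18a2 with Cre.

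Of the other genes for monoamine breakdown and transport, Maob differed most clearly between the sexes. Maob encodes monoamine oxidase B, a mitochondrial enzyme that degrades dopamine. Without Cre it averaged 7.29 CPM in females and 24.3 CPM in males, and with Cre 9.07 CPM in females and 26.3 CPM in males. Every female library was below every male library in both comparisons. The log2 fold changes were -1.73 (SE 0.239, edgeR adjusted p = 8.74e-05) without Cre and -1.57 (SE 0.238, edgeR adjusted p = 7.19e-05) with Cre, and both were kept in 12 of 12 fits that left out a library. In this list of 12 genes, 9 were tested: 0 were higher and 1 lower in females without Cre (1.5% of all genes were called), and 1 was higher and 3 lower with Cre (27.9% of all genes were called), beside Maob the other monoamine oxidase gene Maoa (-0.43) and the aldehyde dehydrogenase gene Aldh2 (-0.74), while the membrane monoamine transporter gene Slc29a4 was higher (0.74). The Maoa call was kept in 6 of 12 such fits.

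The list's median log2 fold change was -0.43 with Cre against -0.10 over all genes. With Cre against without, 1 of its 9 genes was called, beside 6.89% of all genes: Slc18a1, which encodes the vesicular transporter VMAT1 of neuroendocrine cells, was lower, by a mean log2 difference of -0.65 (edgeR adjusted p = 0.0497), while its paralog Slc18a2 was higher. The Slc18a1 call was kept in 7 of 24 fits that left out a library. The plasma membrane transporters for dopamine, noradrenaline and serotonin (Slc6a3, Slc6a2 and Slc6a4) each had at most 37 counts in any group of 3 libraries.

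Among 9 other synthesis genes, 7 were tested, and with Cre against without 1 was higher and 1 lower, where 6.89% of all genes were called (median 0.26, against -0.03 over all genes). Hdc, the enzyme gene for histamine, averaged 10.7 CPM with Cre and 15.5 CPM without (mean log2 difference -0.57, edgeR adjusted p = 0.0102, kept in 24 of 24 fits). Spr, which makes the cofactor of the hydroxylases, averaged 20.3 CPM with Cre and 14.9 CPM without (0.48, edgeR adjusted p = 0.0365, kept in 12 of 24). In females against males with Cre, 1 was higher and 2 lower, where 27.9% of all genes were called. Hdc (-1.01) and the cofactor-recycling gene Qdpr (-0.72) were the lower ones. Dbh, the enzyme gene for noradrenaline, averaged 0.65 CPM in females and 0.0153 CPM in males with Cre, and its call was kept in 7 of 12 such fits. No gene of this list was called in any of the 4 single comparisons, where 0.041% to 2.21% of all genes were called.

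Of the other dopamine receptors, Drd1 had at most 8 counts in any group, and Drd3 averaged 0.0746 CPM in females and 1.04 CPM in males with Cre (edgeR adjusted p = 0.0166), with overlap between the sexes. Serotonin receptors had 9 of 14 genes tested and adrenergic receptors 7 of 9. Neither family had a call between libraries with and without Cre, where 6.89% of all genes were called. The median log2 differences were 0.55 and 0.40, against -0.03 over all genes. Adrb1, the beta-1 adrenergic receptor gene, was the only one of both families called between the sexes, higher in females with Cre (1.15, edgeR adjusted p = 0.023, kept in 7 of 12 fits that left out a library). Between the sexes, 27.9% of all genes were called with Cre and 1.5% without.

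Of the 17 partners through which the D2 receptor signals, all were tested, and with Cre against without 2 were higher and 3 lower, where 6.89% of all genes were called. Their median was 0.06. Gnai1, which encodes an inhibitory G protein subunit, was higher (0.41, edgeR adjusted p = 0.0383), as was Arrb1, beta-arrestin 1 (0.47, edgeR adjusted p = 0.0256). The adenylyl cyclase genes Adcy5 (-0.39, edgeR adjusted p = 0.00505) and Adcy6 (-0.47, edgeR adjusted p = 0.00891) and the potassium channel gene Kcnj3 (-0.37, edgeR adjusted p = 0.0359) were lower. The Adcy5 and Adcy6 calls were kept in 24 of 24 fits that left out a library, and those of Arrb1, Gnai1 and Kcnj3 in 20, 10 and 10. In the single comparisons Adcy6 was lower in female Egr1cKO (-0.84), Adcy5 lower in female Cre control (-0.68) and Arrb1 higher in male Cre control (1.3), with 0, 1 and 0 of 6 such fits keeping the call. Between females and males with Cre, 5 were higher and 6 lower, where 27.9% of all genes were called. Grk3, a receptor kinase gene (1.14), and Arrb2, beta-arrestin 2 (1.05), were higher in every female library, and Gnai3 (-0.91) and Rgs4 (-1.15) were lower in every one. Arrb1 and Kcnj3 were also called and lower in every female library. The other calls, with overlap, were Grk2, Rgs9 and Ppp1r1b, higher in females, and Gnai1 and Kcnj6, lower. The Kcnj6 call was kept in 2 of 12 fits that left out a library.

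Marker lists of pituitary cell types also differed between libraries with and without Cre. Of 9 melanotrope and corticotrope markers, 6 were higher and 0 lower with Cre, where 6.89% of all genes were called, and their summed level ran from 31500 to 228000 CPM with Cre and from 7810 to 49300 CPM without. In female Egr1cKO it was 83500 to 228000 CPM, against 12100 to 40000 CPM in control. Nearly all of the sum was Pomc, at 81000 to 224000 CPM in female Egr1cKO and 11500 to 38600 CPM in control. There, 7 of the 9 markers had log2 fold changes above 0, and Pcsk2, the convertase gene of melanotropes, was higher by 2.61 (edgeR adjusted p = 0.0121). Crhr1 averaged 20.6 CPM in female Egr1cKO against 26.3 CPM in control, and Gpr165 2.92 against 6.44 CPM. Lactotrope markers summed to 20900 to 75800 CPM with Cre and 81500 to 152000 CPM without in females, and to 3360 to 7310 CPM with Cre and 15400 to 47100 CPM without in males, with no overlap in either sex. Nearly all of this sum was Prl, the prolactin gene (-2.17, edgeR adjusted p = 8.9e-08), and of the 4 lactotrope markers tested 1 was higher and 2 lower. Somatotrope markers summed to 41200 to 122000 CPM with Cre and 50300 to 375000 CPM without, nearly all of it Gh, the growth hormone gene. Of the 3 tested, 2 were called lower with Cre. Posterior lobe markers summed to 170 to 585 CPM with Cre and 84.9 to 320 CPM without, and 6 of 7 were called higher. The lactotrope, somatotrope and posterior lobe counts stand against the same 6.89% of all genes. Over the 24 libraries Drd2 had a Pearson r of 0.75 with Pcsk2 and -0.43 with Prl, and 0.68 and -0.35 for deviations from the group means. Ddc had an r of -0.73 with Pcsk2 and 0.72 with the pituitary transcription factor gene Pou1f1, and -0.32 and -0.11 within groups. The libraries share their sex and genotype groups, these values are descriptions, and the part of cell makeup in the results was not tested.

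**Figure D4:**
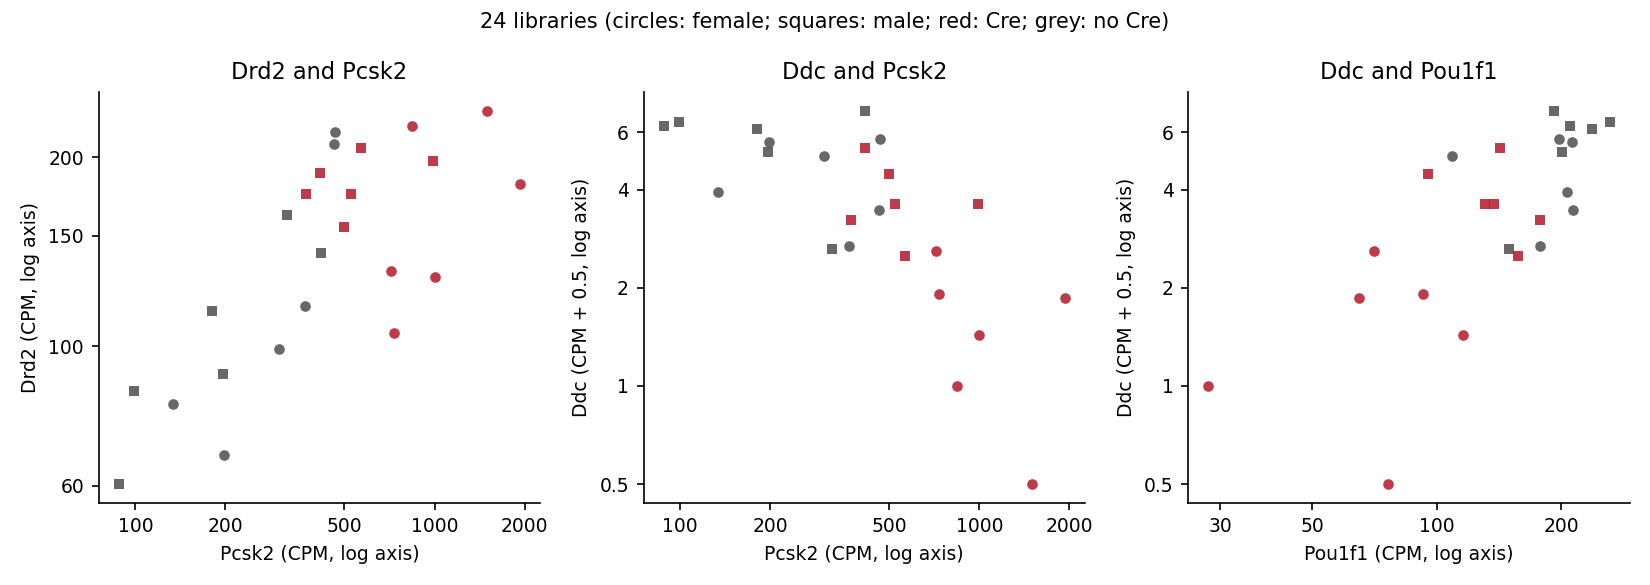
Levels of Drd2 and Ddc against the melanotrope gene Pcsk2, and of Ddc against Pou1f1, in the 24 libraries on log axes, with 0.5 CPM added to Ddc. Drd2 is higher where Pcsk2 is higher (r = 0.75), Ddc is lower where Pcsk2 is higher (r = -0.73), and female libraries with Cre hold the 5 lowest Ddc levels.

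Lists for the cells that make monoamines were also measured. For Slc18a2 and Hdc, mast cell markers summed to 55.3 to 68.6 CPM in female Egr1cKO against 53.8 to 65.9 CPM in control, and to 49.2 to 75.3 CPM in female Cre control against 47.7 to 79.0 CPM in female wild type. None of 6 tested was called in either comparison, where only 2.21% and 1.21% of all genes were. Most of each sum came from Kit and Gata2, of which Gata2 is also a transcription factor gene of gonadotropes and thyrotropes. Kit averaged 38.7 CPM in female Egr1cKO and 21.7 CPM in control, and Gata2 averaged 21.6 CPM in female Egr1cKO and 36.6 CPM in control. The mast cell protease genes Cpa3 and Mcpt4 averaged 1.1 and 1.08 CPM in female Egr1cKO and 0.342 and 0.356 CPM in control. Tpsb2 averaged 0.764 CPM in female Egr1cKO and 0.353 CPM in control. Cma1 went the other way, with 0.171 CPM in female Egr1cKO and 0.427 CPM in control. Libraries of the groups overlapped in each of these protease genes. The list's median log2 fold change was 0.96 in female Egr1cKO and 0.31 in female Cre control, against -0.05 and -0.04 over all genes. Of its 6 tested genes, 4 were above 0 in female Egr1cKO and 3 in female Cre control. For Th, the list of hypothalamic dopamine neurons summed to 59.7 to 728 CPM with Cre and 33.6 to 230 CPM without. Foxa2 was at 0 counts in 7 of 8 groups and Slc6a3 in 2 of 8. Of 4 tested with Cre against without, 1 was called, where 6.89% of all genes were. It was Nr4a2, also an immediate early gene (1.94, edgeR adjusted p = 0.0443). Adrenal chromaffin markers summed to 2030 to 3100 CPM with Cre and 904 to 2270 CPM without. Of 2 tested, 1 was called higher, beside the same 6.89% of all genes. It was Chga, the chromogranin A gene that pituitary endocrine cells also express (0.77). For Tph2, serotonin neuron markers summed to 3.83 to 16.1 CPM in female Egr1cKO and 6 to 7.91 CPM in control. None of 3 tested was called there, where 2.21% of all genes were.

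The genes whose levels were most like each member's were taken from 13986 tested genes with a mean of at least 1 CPM, by Pearson r of log2(CPM + 0.5) over the 24 libraries. For Drd2 they were Syndig1l (0.92), Lbh (0.90) and Mdga2 (0.90), with 0.80, 0.91 and 0.82 for deviations from the group means. Drd4 was most like the Y-linked genes Ddx3y, Uty and Kdm5d (0.96 each), and within groups these values were 0.62, 0.43 and 0.23. For Ddc they were Nqo1 (0.90), Opcml (0.87) and Htatip2 (0.86), with 0.65, 0.72 and 0.54 within groups. Slc18a2 was most like Fam229a (0.83), Pou4f1 (0.82) and Spef1 (0.80), with 0.70, 0.36 and 0.37 within groups. Th was most like Nars2 (0.76), Tinf2 (0.70) and Shc4 (0.69), with 0.72, 0.68 and 0.65 within groups. Tph2 was most like Pcsk2os1 (0.73), Kcnj8 (0.68) and AC141882.2 (0.67), with 0.55, 0.14 and 0.38 within groups.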

How the data were processed

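Pituitary RNA was purified with RNeasy columns, and 1.5 ug of it went into non-stranded polyA libraries, per the labels' protocols. Trim Galore 3.8.2, FastQC and STAR 2.7.9 with the GRCm38 genome are named in the submitters' processing notes. Neither the counting tool nor its annotation release is named in the sources used here. The authors deposited raw counts per Ensembl gene with no normalization. GENCODE M21 held 35077 of these identifiers and lacked 114.

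The fit used R 4.3.3 and edgeR 4.0.16, with filterByExpr by group, TMM scaling, 1 model with a mean for each of 8 groups (16 residual degrees of freedom) and the robust quasi-likelihood test. Adjusted p-values are Benjamini-Hochberg values. SE is the absolute log2 fold change (prior count 0.125) divided by the square root of the quasi-likelihood F statistic. The 95% intervals are built from that SE. The floor for a group at 0 is 3 counts and covers counting error only, since reads carry no molecular identifiers. Groups came from titles and genotype labels. No label says that libraries came from separate animals, so the p-values speak for the spread between libraries, which may be technical. Replicates of 1 group differed by a chi-square per degree of freedom of 16.3 or more in 24 pairs (genes with 20 or more summed counts). The fit was tested on simulated data. Alternatives were DESeq2 size factors, no filter, DESeq2 1.42.0, only the groups compared, and leaving out each library. Genes, lists and comparisons were chosen with earlier results of these data known. All members were covered in every comparison, except Drd4 in some where a group had no count. Pathway list genes were named where called or where a result turned on them. Marker genes were named in part. The value of 1 marker gene is not reported here.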

Additional observations from a re-analysis of the deposited data

Results flagged for a closer look

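Slc18a2, the vesicular monoamine transporter gene, changed with Cre differently in the sexes. The change in females minus that in males, averaged over floxed and unfloxed Egr1, was 1.99 on the log2 scale (SE 0.335, edgeR adjusted p = 0.00701). Levels were higher in 6 of 6 females with Cre than in any female without, at 12.5 to 28.3 CPM against 3.63 to 11.2 CPM, while males had 4.60 to 8.67 CPM with Cre and 6.27 to 13.7 CPM without. Mitochondrial transcripts also differed among the female groups, at 9.42 ± 0.872% in Egr1cKO, 4.90 ± 1.76% in Egr1cKO control, 6.08 ± 0.586% in Cre control and 4.98 ± 4.44% in wild type (SD, n = 3 each). Their part in the result was not tested.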

How the results depend on the processing

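No paired analysis was possible because the labels give no replicate numbers shared between groups. With DESeq2 size factors in edgeR, every call on the 6 genes was kept. Without the filter on low counts the number of genes called was 1142 for Egr1cKO in females, 339 for Egr1cKO in males, 1149 for Cre control in females, 704 for Cre control in males, 59 for Egr1cKO beyond Cre, 763 for females against males without Cre, 2081 for the sex by Cre term and 63 for Egr1cKO control against wild type. In that fit Th (4.49) and Ddc (-2.50) in female Egr1cKO, Drd2 (0.78) and Th (4.06) in male Cre control, and Drd2 beyond Cre (0.88) also passed the threshold. DESeq2 called 1453 genes for Egr1cKO in females, 103 in males, 1011 and 264 for Cre control in females and males, 3 beyond Cre, 662 between the sexes without Cre and 1373 for the sex by Cre term, and it added Th (4.60) and Ddc (-2.52) in female Egr1cKO and Tph2 between the sexes without Cre (-2.23) and in the sex by Cre term (2.29). Models of only the groups compared called 192 genes for Egr1cKO in males, 2 and 112 for Cre control in females and males, and 164 between the sexes without Cre. There the calls on Slc18a2 (1.32) and Tph2 (3.73) in female Egr1cKO and on Slc18a2 in female Cre control (1.85) were lost; those models rest on fewer libraries.

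Leaving out 1 library at a time, the number of genes called ran from 142 to 581 for Egr1cKO in females, 2 to 28 for Egr1cKO in males, 29 to 3603 for Cre control in females, 4 to 24 for Cre control in males, 0 to 1 beyond Cre, 178 to 478 between the sexes without Cre, 68 to 4556 for the sex by Cre term and 0 to 1665 for Egr1cKO control against wild type. The top values of the Cre control comparison in females, the sex by Cre term and the last comparison came without female wild type replicate 1. Log2 values of called genes ran from 1.12 to 1.53 (Drd2), 1.08 to 1.60 (Slc18a2) and 2.85 to 4.52 (Tph2) in female Egr1cKO, 1.70 to 2.02 (Slc18a2) in female Cre control, and 0.53 to 0.67 (Slc18a2) and 2.16 to 3.86 (Th) with Cre against without. Uncalled values that changed sign ran from -0.07 to 0.22 (Slc18a2), -1.65 to 1.93 (Th) and -0.75 to 0.14 (Ddc) beyond Cre, -0.62 to 0.23 for Tph2 between the sexes with Cre, -3.02 to 0.57 for Th between the sexes without Cre, -2.07 to 1.51 for Th in Egr1cKO control against wild type, -0.20 to 0.08 (Slc18a2) and -0.77 to 1.15 (Th) in male Egr1cKO, and -0.64 to 0.70 (Drd4) in male Cre control. For results that changed, the cause was not tested. Low counts limit Th, Tph2, Ddc and Drd4, whose intervals are wide.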
